A study of Homo sapiens with 8 samples.

Results

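The fibroblast growth factor (FGF) receptors and the proteins that work beside them in the membrane were followed here as 10 genes, chosen by symbol. They comprised the 4 receptor tyrosine kinases FGFR1, FGFR2, FGFR3 and FGFR4, the kinase-less receptor FGFRL1, the adaptors FRS2, FRS3, GRB2 and GAB1, and the coreceptor KLB. All 10 were found among the 63241 genes of the NCI-H716 tables. The 28043 genes used from the HCT116 table ran over chromosomes 1 to 8 and the start of chromosome 9 and held 7 of them. FGFR2 on chromosome 10, FRS2 on chromosome 12 and GRB2 on chromosome 17 therefore have values in NCI-H716 alone and were not analysed here in HCT116. On build GRCh38, FGFR3 (1793293 to 1808872), FGFRL1 (1009936 to 1026898) and GAB1 (143336762 to 143474568) lie on the plus strand of chromosome 4, as does KLB, and FGFR4 on chromosome 5. FRS3 (41770176 to 41786542) lies on the minus strand of chromosome 6 and FGFR1 (38400215 to 38468834) on that of chromosome 8. FRS2 lies on the plus strand (69470349 to 69579793) and GRB2 on the minus strand (75318076 to 75405709) of their chromosomes. Counts cover the exons of each gene.

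As background, an FGF binds its receptor together with heparan sulfate, the receptor pairs with a second copy and its kinase phosphorylates the docking proteins FRS2 and FRS3. GRB2 then connects the docked complex to SOS and the RAS-ERK cascade, and GAB1 connects it to PI3K and SHP2. FGFRL1 binds FGFs without a tyrosine kinase of its own, and KLB (β-klotho) enables FGFR1 and FGFR4 to respond to the endocrine ligands FGF19 and FGF21.

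The libraries came from 2 human colorectal cancer cell lines. HCT116 is an adherent colon carcinoma line, and NCI-H716 grows in suspension, has neuroendocrine features and is known for an amplified FGFR2. Each line was sequenced as 2 control and 2 Z325 libraries, where Z325 is ZINC000101867325, a small molecule selected by docking as a candidate FGFR inhibitor and dissolved in DMSO. The labels name no engineered gene in any group, and neither the vehicle of the control nor the dose and time of the RNA experiment is stated in the labels. The study calls the libraries of a group biological duplicates, and the labels do not say how they were separated, so p-values measure the spread between these libraries, whatever its source.

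The HCT116 libraries held 13183792 to 13396225 counts, except Z325 replicate 2 with 3434620. The NCI-H716 libraries held 10210239 to 19738840 counts. EPCAM, an epithelial marker, had at least 5665 counts in every HCT116 library and at least 506 in every NCI-H716 library. Of 11 intestinal epithelial markers, 8 reached 1 TPM (a level divided by transcript length and scaled to the library) in an NCI-H716 group. The rest were CDH1 with 0 to 7 counts, KRT20 with 0 to 9 and CLDN3 with 3 to 9. In HCT116, 3 of the 4 listed reached 1 TPM, and VIL1 had 0 to 6 counts. In NCI-H716, 7 of the 8 enteroendocrine markers reached 1 TPM, and NEUROD1 had 0 or 1 count. Of the 3 listed in HCT116, SCG2 had 62 to 294 counts, and NEUROD1 and PCSK1 had 0 to 2. Leukocyte and endothelial markers were near 0, apart from CD68 with 23 to 66 counts and CD14 with 2 to 14 counts in NCI-H716. Among fibroblast markers in NCI-H716, COL3A1 had 2730 to 7033 counts and LUM had 2328 to 3652. PDGFRA had 15 to 64 counts, COL1A2 3 to 26 and DCN 0 to 9, whereas COL1A1 and PDGFRB had at most 1.

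The makeup of the 4 kinase receptors was compared first, since Z325 was selected by docking to them. In the paper's binding assay, the affinity of Z325 was strong for the FGFR1 kinase domain and poor for that of FGFR4. FGFR2 and FGFR3 were not assayed. In NCI-H716, FGFR2 made up nearly the whole of the receptor transcript pool. Its level was 88.1 and 91.7 TPM in the control libraries and 69.0 and 83.8 TPM in the Z325 libraries. It took 98.7% and 99.2% of the summed TPM of FGFR1 to FGFR4 in the control libraries, against 96.6% and 99.5% with Z325. By counts it took 99.0% and 98.5% in the control libraries, against 98.2% and 99.0% with Z325. Its control level ranked 1253 of the 14142 genes tested in this line, with 91.1% of them below it.

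The other receptors of NCI-H716 were rare. FGFR4 averaged 0.520 ± 0.226 TPM (SD, n = 2) and FGFR3 0.250 ± 0.113 TPM in the control libraries. FGFR1 had 3 to 9 counts and was too low to enter the test of this line. FGFRL1 had 19 and 1 counts without Z325 and 9 and 23 counts with it. With so few counts, the order of these 4 genes was not resolved in the Z325 libraries, where the ranges of each neighbouring pair overlapped.

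FGFR2 was not among the kinase receptors measured in HCT116. None of the 3 that were took nearly the whole of their summed level in this line. In its control libraries, with the exon length of the table, FGFR4 stood at 4.54 ± 0.785 TPM, FGFR1 at 3.03 ± 0.431 TPM and FGFR3 at 1.99 ± 0.493 TPM (SD, n = 2), and FGFRL1 at 3.354 ± 1.003 TPM. TPM of HCT116 is scaled over its listed genes alone, which held 39.4% to 42.1% of the TPM in the NCI-H716 libraries. It is therefore not comparable with NCI-H716 TPM, here or in later paragraphs, except where 1 exon length per gene is used for both lines. The ranges of FGFR4 and FGFRL1 and of FGFRL1 and FGFR1 overlapped over the libraries, while the lowest FGFR1 value lay above the highest FGFR3 value. FGFR4 took 41.3% and 53.9% of the summed TPM of FGFR1, FGFR3 and FGFR4 in the control libraries, against 39.1% and 46.7% with Z325. The share of FGFR1 was 34.5% and 28.8% in the control libraries, against 34.0% and 36.9% with Z325, and the share of each of the 3 receptors, FGFR3 included, overlapped between the groups. The order of the receptors depended on the length that divides the counts. By counts alone FGFR1 led in every HCT116 library, with 59.1% to 67.6% of the summed counts against 20.8% to 30.9% for FGFR4. The exon length of FGFR1 is the longest of the 3, 17201 bases in GENCODE v44 against 4810 for FGFR4, and its longest transcript has 6216 bases against 3093. With the longest transcript as the length, an alternative chosen after the data were seen, FGFR1 took 43.5% to 52.8% and FGFR4 32.8% to 45.8%, so no order of these 2 is given here. These shares leave FGFR2 out, since its chromosome lay outside the HCT116 table used.

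The 250 bases before the start of transcription are shown for FGFR2, the leading receptor of NCI-H716, for FGFR4, which was below its controls in both HCT116 Z325 libraries, and for KLB, which had the largest ratio between the lines among the genes of the set measured in both. They are RefSeq promoter sequences of build GRCh38.p14, written 5′ to 3′ on the strand of the gene, and bases that GENCODE v44 already places in the gene were removed. FGFR2 lies on the minus strand of chromosome 10 (gene 121478332 to 121598458), and the stretch is chr10:121598459-121598694. FGFR4 lies on the plus strand of chromosome 5 (gene 177086905 to 177098144), and the stretch is chr5:177086665-177086904. KLB lies on the plus strand of chromosome 4 (gene 39406930 to 39451533), and the stretch is chr4:39406680-39406929. Capitals mark the GC box, GGGCGG on either strand, the core of the site that Sp1 family factors bind.
FGFR2: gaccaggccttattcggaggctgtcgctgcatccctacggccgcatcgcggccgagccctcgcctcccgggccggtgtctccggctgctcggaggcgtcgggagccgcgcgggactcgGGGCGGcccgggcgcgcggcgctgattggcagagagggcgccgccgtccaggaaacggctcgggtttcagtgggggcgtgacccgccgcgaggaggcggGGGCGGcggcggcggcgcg
FGFR4: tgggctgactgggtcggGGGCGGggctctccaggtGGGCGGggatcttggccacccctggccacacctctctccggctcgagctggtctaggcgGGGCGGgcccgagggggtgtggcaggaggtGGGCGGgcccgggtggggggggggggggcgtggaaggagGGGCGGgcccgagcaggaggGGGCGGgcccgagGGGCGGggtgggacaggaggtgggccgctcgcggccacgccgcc
KLB: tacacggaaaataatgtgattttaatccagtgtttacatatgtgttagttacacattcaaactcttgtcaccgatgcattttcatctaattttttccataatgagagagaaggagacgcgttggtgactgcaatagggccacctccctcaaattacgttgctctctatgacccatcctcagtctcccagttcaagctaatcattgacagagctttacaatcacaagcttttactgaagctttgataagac

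The GC box occurred 2 times before FGFR2, 7 times before FGFR4 and in no place before KLB, and it is found in 42.6% of the 35116 RefSeq promoters over 250 bases. The FGFR3 window held 8. The 3 kinase receptor windows were 78.0% to 86.8% G or C, against 39.2% for KLB. CpG, the dinucleotide that can be methylated, occurred 40 times before FGFR2, 40 before FGFR3 and 21 before FGFR4, but 5 times before KLB, and the median of all promoters was 11. A CCAAT box, found in 32.0% of promoters, occurred once before FGFR2 and in none of the other 3 windows, and TATAAA, found in 10.7%, in none of the 4. These letters describe the sequence and were not tested against expression.

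The adaptors and the coreceptor were ordered in the same way. In NCI-H716 control libraries, GRB2, the link to SOS, stood at 9.84 ± 0.983 TPM, KLB at 2.95 ± 0.297 TPM, FRS2 at 2.16 ± 0.346 TPM and GAB1 at 1.92 ± 0.325 TPM (SD, n = 2). GRB2 lay above KLB and KLB above FRS2 in every control library, whereas FRS2 and GAB1 overlapped. FRS3, the second FRS docking protein, had 0 counts in 3 of the 4 libraries and 4 counts in Z325 replicate 1. With 3 counts as the limit that a count of 0 allows, FRS3 could have stood at up to 0.224, 0.294 and 0.152 CPM (counts scaled to the library total) in those 3 libraries, for counting error only. In HCT116, GAB1 averaged 0.562 ± 0.240 TPM, KLB 0.456 ± 0.228 TPM and FRS3 0.383 ± 0.105 TPM in the control libraries, and the ranges of neighbours in this order overlapped. FRS3 shares 132 exon bases with another annotated gene and 50 with PRICKLE4, both on the opposite strand, so its few reads are uncertain. For FGFR1, 387 exon bases are shared with an antisense gene and 138 with LETM2, so reads from those bases cannot be assigned with certainty.

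To set the lines side by side, TPM was recomputed over the 28015 genes listed in both kinds of table with 1 exon length per gene, and no test was made because the lines were quantified in different ways. On this scale, 3 of the 7 shared genes did not overlap between the lines. KLB ran from 27.5 to 49.8 TPM in the NCI-H716 libraries and from 0.294 to 0.824 TPM in the HCT116 libraries, a ratio of 66.1 between the control means. GAB1 ran from 8.36 to 11.5 TPM in NCI-H716 and from 0.163 to 0.732 TPM in HCT116, a ratio of 16.2. FGFR1 went the other way, from 0.138 to 0.327 TPM in NCI-H716 and from 1.36 to 3.33 TPM in HCT116, 15.9 times higher in the HCT116 control mean.

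These separations were common on this scale. Of the 7642 genes tested in both lines together, 47.3% were higher without overlap in NCI-H716 and 22.5% were lower. A gene could enter that test through its counts in 1 line alone, and such a gene separates more readily, so these shares are a loose yardstick. Over the genes detected in the controls of both lines, the median ratio was 1.42. The KLB ratio was above that of 94.4% of the 6694 genes detected in the controls of both lines, the GAB1 ratio above 88.0%, and the FGFR1 ratio above 4.06%. FGFR3, FGFR4, FGFRL1 and FRS3 overlapped between the lines. The control means of FGFR3 were 2.20 TPM in NCI-H716 and 1.99 TPM in HCT116 on this scale, and those of FGFR4 were 1.96 and 4.54 TPM. For FGFRL1 they were 1.39 and 3.35 TPM, and for FRS3 0 and 0.383 TPM.

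The change with Z325 was then tested within each line. In HCT116, the 3 measured kinase receptors were lower in both Z325 libraries than in both controls, but no gene of the set passed the test. FGFR4 stood at 6.36 and 8.51 CPM (TMM-normalized over the listed genes) in the control libraries and at 2.82 and 4.87 CPM in the Z325 libraries. FGFR1 stood at 19.0 and 16.3 CPM in the control libraries and at 8.76 and 13.8 CPM in the Z325 libraries. FGFR3, with 52 and 36 control counts against 25 and 6 Z325 counts, stood at 3.76 and 2.76 against 1.96 and 1.72 CPM. Of all 6491 genes tested, 29% were lower without overlap, so this separation by itself was frequent.

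By edgeR's quasi-likelihood test with Benjamini-Hochberg adjustment, the log2 fold change of FGFR4 was -1.02 ± 0.46 (SE, 95% interval -2.08 to 0.04, adjusted p = 0.226). That of FGFR1 was -0.68 ± 0.34 (interval -1.46 to 0.10, adjusted p = 0.268), and that of FGFR3 was -0.81 ± 0.59 (interval -2.16 to 0.55, adjusted p = 0.463). Written as folds of the control level, the intervals ran from 0.237 to 1.03 for FGFR4 and from 0.364 to 1.07 for FGFR1, so both a large fall and no change were left in. FGFRL1 overlapped, with 5.86 and 3.99 CPM in the control and 2.82 and 4.30 CPM in the Z325 libraries (adjusted p = 0.590 in the same edgeR test).

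The adaptor and coreceptor of HCT116 were less certain still. GAB1 had 34 and 18 control counts against 18 and 2 Z325 counts, a log2 fold change of -0.82 ± 0.81 (adjusted p = 0.596, edgeR). KLB had 17 and 8 control counts against 10 and 6 Z325 counts, a log2 fold change of 0.33 ± 0.97 (adjusted p = 0.886, edgeR). FRS3 had 4 to 8 counts in every library and did not enter the test, with 0.434 and 0.307 CPM in the control and 0.626 and 2.29 CPM in the Z325 libraries.

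In all, 6 of the 7 genes listed for HCT116 entered the test and 0 were called at an adjusted p under 0.05, where 5.78% of all genes were called. None of the 6 had an unadjusted p under 0.05, which 23.9% of all genes had. DESeq2 called 0, where it called 709 of 14822 genes, but it gave no adjusted p for GAB1 and KLB. Limma called 0, where it called only 47 of 6491 genes on log2(FPKM + 1) and 37 on log2(FPKM + 0.1). The median log2 fold change of the 6 was -0.74, beside -0.027 over all genes tested. Without Z325 replicate 2, the shallow library, edgeR called FGFR4 (log2 fold change -1.37, adjusted p = 0.0397) and FGFR1 (-0.98, adjusted p = 0.0490), in a fit that called 15.2% of all genes and assumes the lone Z325 library to vary like the controls. Without Z325 replicate 1 the values were -0.62 for FGFR4 and -0.38 for FGFR1 (adjusted p = 0.461 and 0.572, edgeR), so the size of both differences rested on which Z325 library was read.

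**Figure D1:**
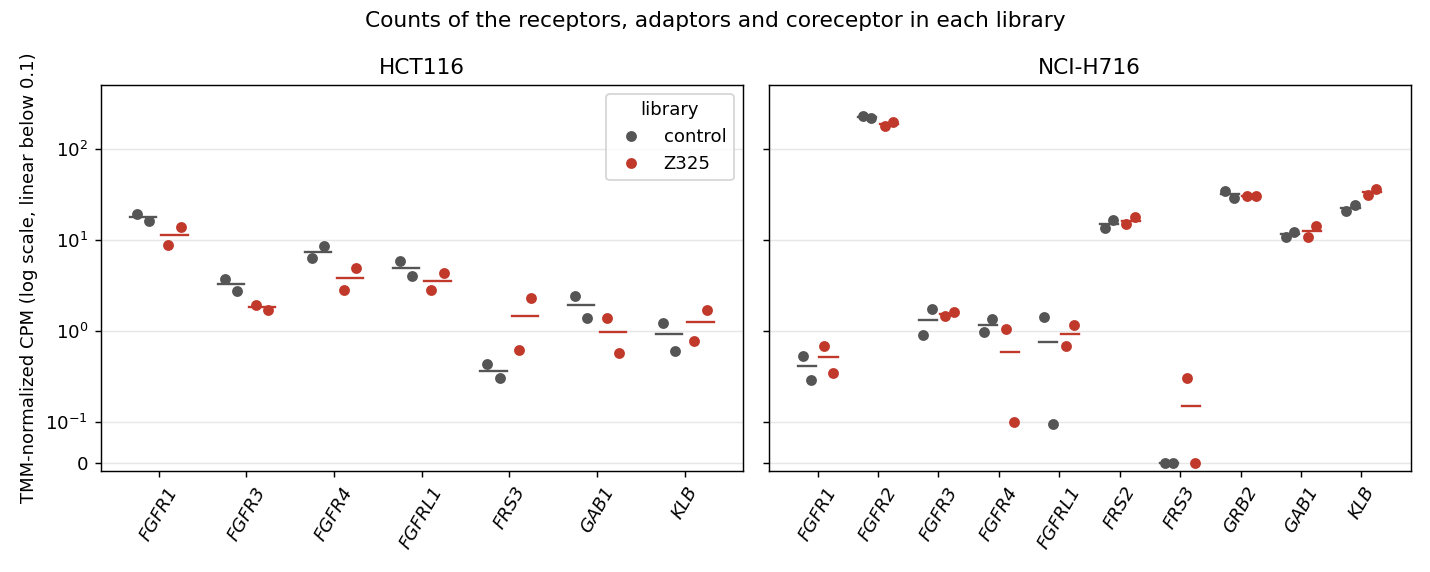
TMM-normalized CPM (y axis, log scale that is linear below 0.1) of each gene (x axis) in the control and Z325 libraries of HCT116 (left) and NCI-H716 (right), with points for libraries and bars for the mean of 2. In HCT116 the points of FGFR1, FGFR3 and FGFR4 separate with Z325 lower, and in NCI-H716 those of FGFR2 separate with Z325 lower and those of KLB with Z325 higher.

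In NCI-H716, FGFR2 was slightly lower and KLB higher in both Z325 libraries, and neither passed the test. FGFR2 had 3016 and 2236 control counts against 2302 and 3898 Z325 counts, which became 228.4 and 216.8 CPM against 175.8 and 195.9 CPM. Its log2 fold change was -0.26 ± 0.16 (SE, 95% interval -0.61 to 0.09, adjusted p = 0.431, edgeR), or a fold of 0.835 with an interval of 0.655 to 1.06. As the most deeply counted gene of the set, FGFR2 had the narrowest interval, and it leaves out a change to less than 0.655 of the control level.

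KLB stood at 21.0 and 24.1 CPM in the control libraries and at 31.1 and 36.1 CPM in the Z325 libraries. Its log2 fold change was 0.58 ± 0.20 (interval 0.13 to 1.03), a fold of 1.49, with an unadjusted p of 0.0171 and an adjusted p of 0.209 in edgeR. Unadjusted p-values under 0.05 were found for 16.9% of the genes tested in this line. The enteroendocrine markers had a higher summed level in the NCI-H716 Z325 libraries as well. It was 314.9 and 357.8 TPM in the control libraries and 394.7 and 464.7 TPM in the Z325 libraries, 6 of the 7 tested were higher without overlap, as were 24.3% of all genes tested, and 0 were called, where 0.502% of all genes were. The intestinal epithelial markers summed to 454.9 and 439.4 TPM in the control libraries and 378.5 and 372.0 TPM in the Z325 libraries. Whether a shift between such cell states has a part in the KLB or FGFR2 values was not tested, and in bulk RNA fewer cells of a kind and less RNA per cell cannot be told apart.

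The adaptors of NCI-H716 differed by less than the spread between libraries. FRS2 stood at 13.4 and 16.5 CPM in the control and 14.8 and 17.6 CPM in the Z325 libraries, a log2 fold change of 0.12 ± 0.24. GAB1 stood at 10.8 and 12.2 CPM against 10.7 and 14.1 CPM, a log2 fold change of 0.11 ± 0.26. GRB2 stood at 34.6 and 28.6 CPM against 30.7 and 30.0 CPM, a log2 fold change of -0.060 ± 0.20. For these 3 adaptors the 95% intervals of the fold lay between 0.709 and 1.61, and the adjusted p-values of edgeR between 0.833 and 0.907.

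The TPM of GRB2 gave another picture from its counts, with 9.14 and 10.5 TPM in the control and 9.20 and 18.2 TPM in the Z325 libraries. The length that RSEM assigned to GRB2 was 1445 bases in Z325 replicate 2 and 2301 to 3089 bases in the other libraries. The TPM divides by that length, and CPM does not.

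The rare receptors of NCI-H716 had wide intervals. FGFR4 had 13 and 14 control counts against 14 and 2 Z325 counts, a log2 fold change of -1.08 ± 0.94 (interval -3.18 to 1.01, adjusted p = 0.598, edgeR). FGFR3 and FGFRL1 had log2 fold changes of 0.22 with standard errors of 0.60 and 0.92. In all, 8 of the 10 genes entered the test and edgeR, DESeq2 and limma called 0 of them, where 0.502% of all genes were called by edgeR. DESeq2 called 316 of 31956 genes, and limma only 6 of 14142 on either FPKM scale. DESeq2 gave no adjusted p for FGFR3, FGFR4 and FGFRL1. KLB was the 1 gene of the 8 with an unadjusted p under 0.05, and FGFR2 and KLB were the genes without overlap, where 25.1% of all genes were lower and 24.3% higher without overlap. The median log2 fold change of the 8 was 0.12, beside -0.0063 over all genes tested.

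**Figure D2:**
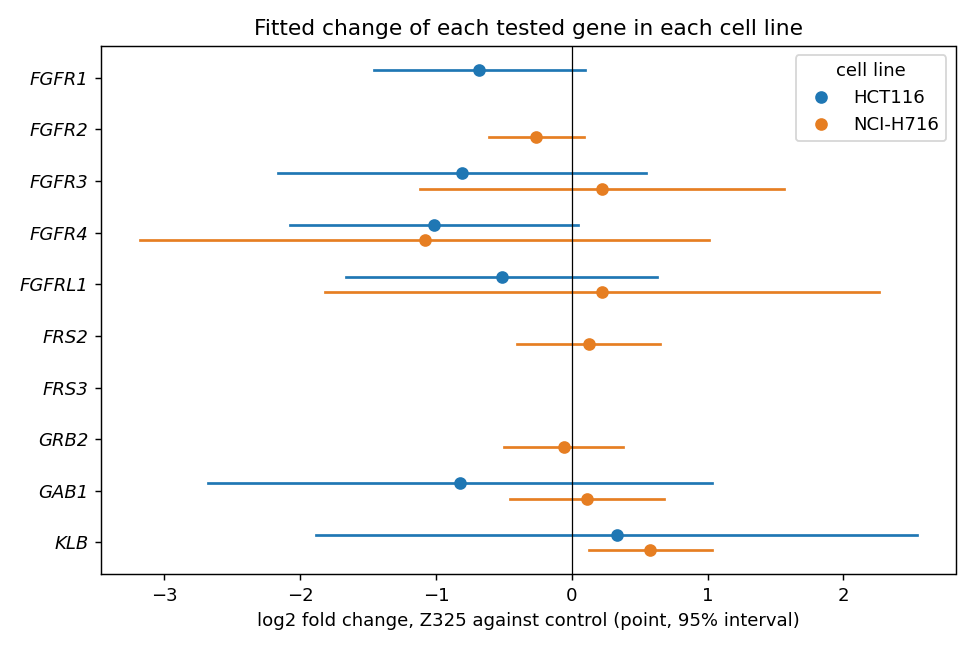
Log2 fold change of Z325 against control (x axis) with its 95% interval from edgeR for each gene that entered the test (y axis), by cell line. The interval of KLB in NCI-H716, 0.13 to 1.03, is the 1 that leaves out 0 before adjustment, and FGFR2 has the narrowest interval.

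A difference of the Z325 effect between HCT116 and NCI-H716 was looked for with an interaction term over all 8 libraries. The 6 genes listed for both lines that passed the filter over all 8 libraries together were tested. FGFR1 passed with 3 to 9 counts in NCI-H716, too low for the test of that line, so its value rests on few counts there. The log2 difference, NCI-H716 change less HCT116 change, was 0.91 ± 0.78 for FGFR1, 1.02 ± 0.86 for FGFR3 and -0.10 ± 1.03 for FGFR4 (adjusted p = 0.627, 0.621 and 0.9999, edgeR). It was 0.71 ± 1.15 for FGFRL1, 0.83 ± 0.62 for GAB1 and 0.41 ± 0.60 for KLB (adjusted p = 0.851, 0.572 and 0.824, edgeR). None was called, none had an unadjusted p under 0.05, and DESeq2 called 0. EdgeR called 0.0654% of the 7642 genes tested, and DESeq2 104 of 18025. Every interval included 0 and reached beyond a 2-fold difference in at least 1 direction, so a difference of that size between the lines was not excluded.

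The rest of the pathway was described from lists of 78 genes outside the set. Of these, 24 of the 31 listed in HCT116 and 44 of the 78 in NCI-H716 entered the test, and edgeR called 0 in either line, where 5.78% and 0.502% of all genes were called. An unadjusted p under 0.05 was found for 4 of the 24 and 9 of the 44, and for 23.9% and 16.9% of all genes. DESeq2 called 1 in HCT116 and 2 in NCI-H716, where it called 709 of 14822 and 316 of 31956 genes. Limma called 0 in both, where it called at most 47 of 6491 and 6 of 14142 genes. The median log2 fold change of the tested pathway genes was -0.023 in HCT116 and 0.099 in NCI-H716. Of all genes tested, 29% were lower and 24.8% higher without overlap in HCT116, and 25.1% and 24.3% in NCI-H716.

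The ligands listed at 1 TPM or more were not the same genes in each line, although the HCT116 table used lists only 7 of the 18. In HCT116, FGF2, a heparin-binding FGF, averaged 4.93 TPM in the control libraries, FGF18 3.85 TPM and FGF1 2.90 TPM, and no other listed ligand reached 1 TPM in a group. In NCI-H716, FGF9 led with 28.7 TPM in the control and 39.1 TPM in the Z325 libraries, and FGF5 averaged 1.12 TPM in the control libraries. FGF5 rested on few counts, 11 and 14 in the control and 22 and 44 in the Z325 libraries. Its log2 fold change on counts was 0.85 (adjusted p = 0.493, edgeR), whereas its TPM with Z325 averaged 0.385. FGF19 and FGF21, named here after their values were seen because KLB is their coreceptor, had 0 counts in all 4 NCI-H716 libraries. FGF9 had a log2 fold change of 0.32 and FGF2 of 0.12, and no tested ligand was called.

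Among the carriers and coreceptors, FGFBP1, which releases FGFs from the matrix, was the highest in HCT116 at 113.8 TPM in the control libraries, followed by the heparan sulfate proteoglycan SDC1 at 12.2 TPM. GPC1, a glypican, had 89 and 96 counts in the control, against 170 and 47 in the Z325 libraries of HCT116, which became higher CPM values without overlap (log2 fold change 0.95, adjusted p = 0.129, edgeR). In NCI-H716 the highest were SDC4 at 5.03 TPM and SDC1 at 2.26 TPM. Of 4 tested there, all 4 had a log2 fold change below 0, with a median of -0.25 and 0 called. The intracellular FGFs, which are not secreted, were represented in NCI-H716 by FGF12 at 16.2 TPM and FGF13 at 6.15 TPM in the control libraries, with log2 fold changes of 0.57 and 0.39.

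Among the signalling proteins nearest the receptor, GRB14, an adaptor that binds receptor kinases, was the highest of the 12 in NCI-H716, at 33.9 TPM in the control libraries. On the separate TPM scale of HCT116 it stood at 13.5 TPM, the highest of the 4 that the table used lists. Its log2 fold change was 0.68 in HCT116 and -0.37 in NCI-H716, and the difference was not called (adjusted p = 0.193, edgeR interaction). PTPN11, which encodes SHP2, stood at 18.1 TPM and CRK at 17.2 TPM in NCI-H716. Of the 11 tested in NCI-H716, 9 had a log2 fold change above 0, with a median of 0.19 and 0 called. Of the membrane proteins that modulate the receptors, FLRT3 stood at 26.7 TPM and NCAM1, a cell adhesion molecule that can bind FGFRs, at 10.4 TPM in the NCI-H716 control libraries. NCAM1 had a log2 fold change of 0.89 (adjusted p = 0.0801, edgeR) and was higher without overlap, and DESeq2 called it.

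In the RAS-ERK relay, the NCI-H716 control level was 58.1 TPM for MAP2K2 and 22.3 TPM for MAP2K1. The kinases MAP2K1 and MAP2K2, which both phosphorylate ERK, had log2 fold changes of opposite sign, 0.49 and -0.58 (adjusted p = 0.236 and 0.276, edgeR). ARAF, a kinase upstream of both and named after its values were seen, had the largest change of the list in NCI-H716. It stood at 22.9 and 14.0 CPM in the control and at 8.55 and 7.24 CPM in the Z325 libraries, lower without overlap (log2 fold change -1.23, unadjusted p = 0.00156, adjusted p = 0.109, edgeR), and DESeq2 called it. In HCT116, NRAS stood at 131.1 TPM in the control libraries with a log2 fold change of -0.033, and none of the 10 tested in NCI-H716 or the 3 in HCT116 was called.

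Among the transcriptional targets of FGF and ERK signalling, EGR1, an immediate early gene, was the nearest to the threshold in HCT116. It had 337 and 196 counts in the control, against 631 and 136 in the Z325 libraries, and its log2 fold change was 1.17 (adjusted p = 0.0583, edgeR). ETV5, an ETS factor, stood at 34.6 TPM in HCT116 control libraries, with a log2 fold change of 0.40. In NCI-H716 control libraries it stood at 40.5 TPM, on a scale not comparable with that of HCT116, with a log2 fold change of 0.15. SPRY1, a feedback inhibitor of receptor signalling, stood at 47.0 TPM in NCI-H716 with a log2 fold change of -0.28, and ETV1, another ETS factor, at 31.0 TPM with 0.50. In HCT116 both were lower without overlap, as were 29% of all genes, with log2 fold changes of -0.82 for SPRY1 and -0.88 for ETV1 (adjusted p = 0.258 and 0.235, edgeR). In NCI-H716, SPRY1 was lower without overlap as well and ETV1 higher, where 25.1% of all genes were lower and 24.3% higher. The difference between the lines was called for neither (adjusted p = 0.514 and 0.176, edgeR interaction). Over the list the median was -0.012 for the 7 tested in HCT116 and 0.10 for the 13 tested in NCI-H716, and edgeR called 0 in either line.

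The genes on chromosome 10 beside FGFR2 were read in NCI-H716, where the amplified receptor lies. NSMCE4A, a subunit of the SMC5-SMC6 complex, stood at 81.2 TPM in the control and 50.6 TPM in the Z325 libraries, lower without overlap (log2 fold change -0.62, unadjusted p = 0.00454, adjusted p = 0.148, edgeR). ATE1 stood at 9.97 and 10.04 TPM and TACC2 at 4.93 and 4.25 TPM in the control libraries, with log2 fold changes of 0.19 and 0.25. The 5 tested neighbours had a median of 0.052 and 0 were called.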

How the data were processed

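RNA was measured in 8 libraries made by SMART-Seq2 amplification of about 100 cells each. For HCT116 the authors deposited 1 table of raw counts that gives each gene's place and the length of its exons, laid out as featureCounts does it. The labels name that tool beside Bowtie2 2.5.0 and hg38. For NCI-H716 each library's RSEM gene table was deposited, which holds TPM, FPKM and expected counts. The paper's methods name TrimGalore, STAR, RSEM and GRCh38, so the sources do not give 1 pipeline for both lines. The treatment of strand and of shared reads is not given in the sources used here. The HCT116 table used ends on chromosome 9 at base 4587469, and 4 broken lines among 28047 were skipped.

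Symbols were paired with 62666 of 63241 NCI-H716 genes through GENCODE v44. Expected counts were rounded. For HCT116, FPKM and TPM were derived here from the counts, the exon lengths and the totals of the genes used. Each line was fitted in edgeR 4.0.16 (TMM, filterByExpr, quasi-likelihood test, Benjamini-Hochberg over all genes tested, adjusted p under 0.05), without a replicate block. Exact permutation tests of 1 value with 2 against 2 libraries cannot go below p = 0.333, so none was used. Intervals are at 95%, and floors take 3 counts and cover counting error only.

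The genes and lists were chosen with earlier results of these data known. All 10 genes are named, as are other listed genes that passed the test, the 3 of each list with the highest mean TPM in a line, and ligands at 1 TPM or more. Exceptions are stated, and a gene selected this way is not reported here. The functions were tested on simulated data. Alternatives were DESeq2 1.42.0, limma 3.58.1 on log2(FPKM + 1) and log2(FPKM + 0.1), library size alone, no filter, a minimum of 10 counts, a replicate block, all 8 libraries in 1 fit, thinning to the shallowest library, and leaving out each library. R 4.3.3 ran the fits, and Python 3.11.15 with pandas 2.3.3 the summaries.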

Additional observations from a re-analysis of the deposited data

How the results depend on the processing

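The call of each gene in each line and in the interaction stayed on its side of the threshold under every alternative run but 3 values. Leaving out HCT116 Z325 replicate 2 called FGFR4 and FGFR1, and the replicate block called KLB in NCI-H716 (log2 fold change 0.57, adjusted p = 0.00971, edgeR), in a fit that called 16.9% of all genes. Same-numbered libraries had deviations correlated at -0.022 in HCT116 and 0.29 in NCI-H716. With 2 pairs per line and no shared batch in the labels, the numbers do not pair the libraries, and the block called 0 genes of the set in HCT116 and in the interaction. Over the fits that left out 1 library, 0 to 2 genes of the set were called in HCT116, and 0 in NCI-H716 and in the interaction.

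Of the 78 other pathway genes, 1 was called in HCT116 with DESeq2, no filter, a minimum of 10 counts, the replicate block or all 8 libraries in 1 fit, each time EGR1, and 0 to 2 with a library left out. In NCI-H716, 2 were called with DESeq2, 3 with no filter, 10 with the replicate block, and 0 to 5 with a library left out. Over all genes, the NCI-H716 fits called 316 of 31956 with DESeq2, 777 of 31956 with no filter and 2397 of 14142 with the block. The 2, 3 and 10 pathway calls were out of 68, 68 and 44 genes. In HCT116 the same fits called 709 of 14822, 683 of 14822 and 381 of 6491 genes. A minimum of 10 counts called 615 of 4890 there, and all 8 libraries in 1 fit 458 of 7642. Fits with a library left out keep 1 library in a group, so their calls alone show no pathway response. The cause of the changed calls was not tested.

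Directions were not stable for genes with few counts or small changes. In HCT116, the log2 fold change of KLB ran from -0.22 to 0.93 with a library left out. In NCI-H716, that of FGFR3 was -0.26 after thinning, and with a library left out FGFR3 ran from -0.18 to 0.76, FGFRL1 from -0.61 to 3.16, FRS2 from -0.015 to 0.29, GRB2 from -0.18 to 0.091 and GAB1 from -0.087 to 0.30. With limma on log2(FPKM + 1) and log2(FPKM + 0.1), FGFR4 was 0.27 and 0.074, GRB2 0.44 and 0.46, and GAB1 -0.15 and -0.22, on a scale that divides by the RSEM length. In the interaction, FGFR4 was 0.020 with no filter, and with a library left out FGFR4 ran from -2.41 to 0.89, FGFRL1 from -0.11 to 3.74 and KLB from -0.23 to 0.83. FGFR1, FGFR3, FGFR4, FGFRL1 and GAB1 in HCT116 and FGFR2 and KLB in NCI-H716 kept their direction under every alternative run.

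With 1 exon length per gene in place of the RSEM length, FGFR2 took 95.6% of the summed receptor level in the NCI-H716 control libraries and 95.4% in the Z325 libraries. With a library left out, its share of TPM ran from 98.7% to 99.2% in the control and from 96.6% to 99.5% in the Z325 libraries, and that of FGFR4 in HCT116 from 41.3% to 53.9% in the control and from 39.1% to 46.7% in the Z325 libraries. With the longest annotated transcript as the length, chosen after the data were seen, the HCT116 share of FGFR4 was 40.1% in the control and 35.2% in the Z325 libraries. At the depth of HCT116 Z325 replicate 2, each gene of the set had 2 to 48 counts there.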

Other observations

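The length that RSEM assigned to a gene is a mean over its transcripts, weighted by their estimated levels, and it varied between libraries for several of these genes. FGFR2 was assigned 1942 to 2187 bases in the 4 NCI-H716 libraries, whereas its annotated transcripts in GENCODE v44 run from 386 to 6964 bases. FGFR4 was assigned 680 to 3093 bases and FGFR1 1712 to 6216, both from few counts. The 680 bases were in Z325 replicate 1, where 14 counts of FGFR4 gave 1.87 TPM. FRS2 was assigned 4449 and 6768 bases in the control libraries and 3241 and 4126 bases in the Z325 libraries. GAB1 was assigned 4012 and 5709 bases in the control libraries and 6523 and 5493 bases in the Z325 libraries. KLB has 1 annotated transcript of 6002 bases and was assigned that length in every library. These values were not tested, and the transcripts behind them were not analysed here.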
